A study of Homo sapiens with 10 samples.

Results

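LINC numbers are placeholder names given to long intergenic noncoding RNA genes that have no name drawn from a function. The genes described here are the rows of the deposited RNA-seq count table whose symbol is LINC followed by digits alone, with LINC00458 left out. They are 201 of the 31017 genes in the table. They carry 199 symbols, because LINC00106 and LINC00102 are each listed on both X and Y. The human embryonic stem cell (ESC) line H9 was compared with neuroectodermal cells (NECs) derived from it over 7 days, by RNA-seq and by promoter capture Hi-C (PCHi-C), each in 2 biological replicates per cell type. Both cell types come from this single line, with no genetic modification named in the labels, so the replicates do not sample different donors. The comparison asks which of these genes changed as ESCs became neuroectoderm, and which distant fragments their promoters contacted in each cell type.

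Long noncoding RNAs are transcribed by RNA polymerase II, are often spliced and polyadenylated, and do not encode a long conserved protein. Some act in the nucleus near the site where they are made, others work in trans or in the cytoplasm, and many are known as transcripts only. A number of them start beside developmental transcription factor genes or carry microRNA hairpins in their introns and exons. Many are detected in few tissues.

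The name did not fix what these genes are. In the GENCODE 44 annotation on GRCh37, 161 of the 201 were typed as lncRNA, 9 as protein-coding and 3 as transcribed pseudogenes. A further 27 could not be matched, and 1 kept the older type lincRNA. LINC00094, for example, is now BRD3OS, LINC00086 and LINC00087 are SMIM10L2A and SMIM10L2B, LINC00116 is MTLN, and all 4 are typed as protein-coding. The set is also uneven along the genome, with 83 members on chromosome 13, 27 on chromosome 21 and 91 on 21 other chromosomes. The median distance from a member's start to the nearest protein-coding start was 83838 bp, with 22 members within 10 kb. A total of 48 members overlapped another gene, taking whole gene spans on either strand with introns included. Reads were counted without regard to strand, so reads from a stretch that such a pair shares cannot be told apart.

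Counted reads totalled 19234087 to 25356382 per library. Of 10 pluripotency markers, 9 were called lower in NECs and 1 was not called, and all 10 neuroectoderm markers were called higher. Of 8 neural crest markers, 4 were called higher and 1 lower, with a summed level of 137 to 149 CPM (read counts scaled to library size) in ESCs and 124 to 233 in NECs. Of 8 mesendoderm markers, 7 were called lower, with a summed level of 39.0 and 107 CPM in the ESC libraries and 5.47 and 7.39 CPM in the NEC libraries. No marker on these lists was at 0 in all libraries. Counts of POU5F1 were 663 and 2749 in NEC replicates 1 and 2, so the NEC libraries were unequal in this pluripotency marker. They were also unequal in neural crest markers, with 393 and 17 reads of SOX10, 186 and 9 of FOXD3, and 117 and 17 of TFAP2A. ETS1 had 609 and 120 and PAX3 1416 and 441, while SNAI2 (524 and 485) and NGFR (1675 and 1947) were closer. ETS1 alone averaged 106 CPM in ESCs, so it dominated the summed crest level there. The ESC libraries shared a sequencing lane that held no NEC library, and the NEC libraries shared a different lane, so cell type and lane cannot be told apart. In bulk RNA, fewer cells that express a gene and less RNA per cell cannot be told apart either.

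Most LINC-named genes had few or no reads. No read was counted in any library for 81 members, and 57 had at least 10 reads over the 4 libraries. After edgeR's filter on low counts, 33 of the 201 members (16.4%) could be tested, against 77.5% of protein-coding genes and 21.5% of the other genes typed as lncRNA. Tested members had a median average log2 CPM of 1.32, against 4.31 over all genes tested, and a median SE of the log2 fold change of 0.34, against 0.15. Smaller changes were therefore harder to detect in this set than in the table as a whole. Of the 168 members not tested, 87 had a read, with at most 14 reads in any library.

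The summed level of the set fell, and LINC00263 accounted for the fall. Members summed to 390 and 383 CPM in the ESC libraries and to 182 and 175 CPM in the NEC libraries. LINC00263 alone took 68.6% and 67.9% of these member reads in ESCs and 15.9% and 16.1% in NECs. With LINC00263 set aside, the summed level was 123 and 123 CPM in ESC replicates 1 and 2 and 153 and 147 CPM in NEC replicates 1 and 2. CPM is taken over the TMM-normalized library size and is not corrected for transcript length, so levels are compared between libraries and not between genes.

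Of the 33 tested members, 12 were called between the cell types by edgeR, with an adjusted p below 0.05 and a fold change beyond 1.5 in log2. The fold change of NECs over ESCs is given on the log2 scale throughout, as a log2 change. The 12 were 6 higher and 6 lower in NECs. Over all 17564 genes tested, 21.0% were called, 11.4% higher and 9.68% lower, and among the other 1940 tested genes typed as lncRNA 31.6% were called. The called share of the tested members was 36.4%, and no test was made of the difference. The median log2 fold change of the tested members was 0.32, against 0.01 over all genes. Its sign depended on the filter, since it was −0.92 with no filter beyond 1 count and −1.0 in DESeq2, both over the 120 members with a read, and it was 0.011 without NEC replicate 1. The median of its absolute value was 1.09, against 0.61. Without genes that overlap another gene, 5 were higher and 5 lower.

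**Figure D1:**
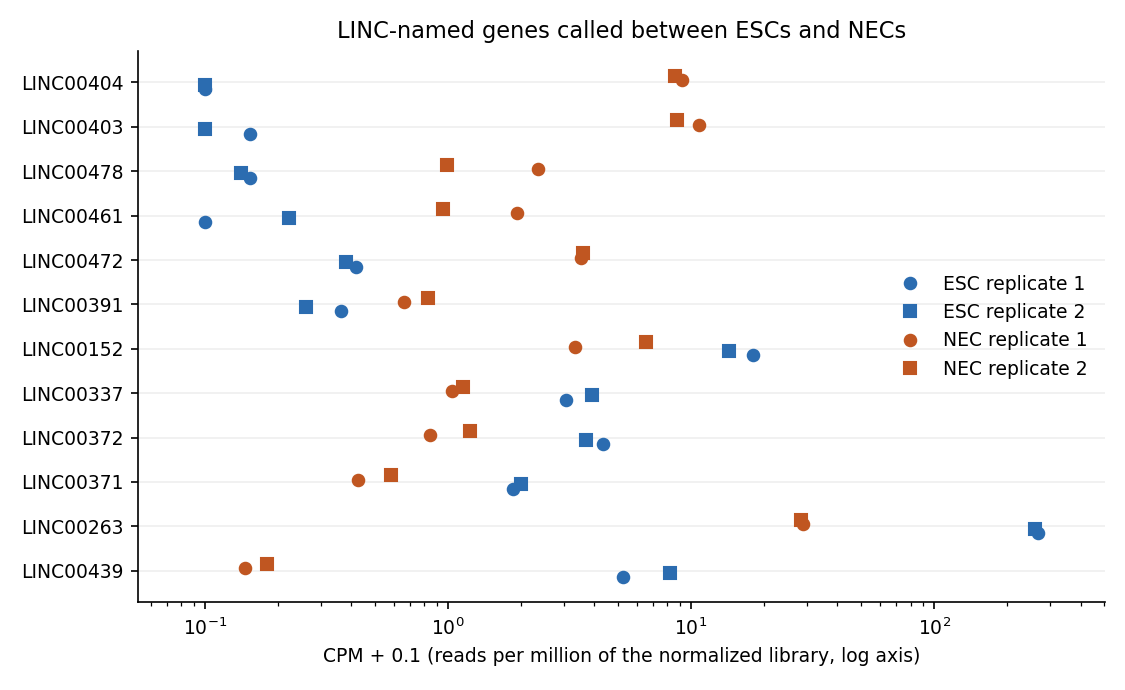
CPM of the 12 called LINC-named genes in each library, with 0.1 added so that zeros can be drawn on the log axis (blue, ESC; orange, NEC; circle, replicate 1; square, replicate 2). The libraries of the cell types do not overlap for any of the 12, and LINC00263 lies at 264 CPM in ESCs and 28.5 CPM in NECs on average.

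LINC00263 (chromosome 10, 102133372 to 102143125, plus strand) is named OLMALINC in GENCODE 44, for its description in oligodendrocyte maturation. It had 5047 and 6421 reads in the ESC libraries and 616 and 695 in the NEC libraries. Its level fell from 264 ± 5.41 CPM (mean ± SD, n = 2 here and below) to 28.5 ± 0.46 CPM, a log2 change of −3.21 (SE 0.09, edgeR adjusted p = 9.6e-06). The replicates lay close together in both cell types. The 300 bases around its start, from 250 bases upstream, hold 2 CCAAT boxes and 16 CpG dinucleotides. They are shown because the start lies on a fragment contacted by a neighbouring promoter, described further on, and CCAAT boxes are in capitals (GRCh37, chr10:102133122-102133421, plus strand).
LINC00263: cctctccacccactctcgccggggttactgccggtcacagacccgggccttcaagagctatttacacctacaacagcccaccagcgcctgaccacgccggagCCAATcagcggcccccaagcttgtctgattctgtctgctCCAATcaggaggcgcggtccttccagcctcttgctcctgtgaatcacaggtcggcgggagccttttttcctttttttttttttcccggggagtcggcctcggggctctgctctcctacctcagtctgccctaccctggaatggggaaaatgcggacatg

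LINC00439 (chromosome 13, 78513297 to 78519009, minus strand) was close to absent in NECs. It had 97 and 200 reads in the ESC libraries and 1 and 2 in the NEC libraries. Pooled over replicates, it was 105-fold higher in ESCs, with an exact 95% interval of 35.4 to 510 that covers counting error only (edgeR adjusted p = 0.000137). The ESC replicates were themselves 5.14 and 8.09 CPM. Its start lies 25.1 kb from that of EDNRB, the endothelin receptor type B gene, which had a log2 change of −0.70 (SE 0.38, edgeR adjusted p = 0.152). The window around its start held 1 CpG, against a median of 14 for the tested members. It is shown as the CpG-poor counterpart of the LINC00263 window, with an ACAAAG match (as CTTTGT) and a CCAAT match (as ATTGG) in capitals (GRCh37, chr13:78518960-78519259, minus strand).
LINC00439: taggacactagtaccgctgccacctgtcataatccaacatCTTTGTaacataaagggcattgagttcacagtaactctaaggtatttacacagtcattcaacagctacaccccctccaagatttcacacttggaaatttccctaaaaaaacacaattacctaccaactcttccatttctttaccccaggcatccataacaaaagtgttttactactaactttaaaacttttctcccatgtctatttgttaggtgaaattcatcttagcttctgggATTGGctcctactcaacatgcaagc

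LINC00371 and LINC00372 are neighbours on chromosome 13 and fell together. LINC00371 (51659560 to 51685078, minus strand) is C13orf42 in GENCODE 44, typed as protein-coding, and ends 25 bp from the end of LINC00372 (51657937 to 51659535, plus strand). LINC00371 had 33 and 47 reads in ESCs and 7 and 12 in NECs, a log2 change of −2.14 (SE 0.36, edgeR adjusted p = 0.00267). LINC00372 had 80 and 89 reads in ESCs and 16 and 28 in NECs, a log2 change of −2.04 (SE 0.32, edgeR adjusted p = 0.00196). The counts of both genes did not overlap between the cell types. Because they converge and counting ignored strand, reads that run past the end of a gene could have been counted for the other, and their values are not independent.

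LINC00337 and LINC00152 made up the rest of the genes that were called lower. LINC00337 (chromosome 1, 6296300 to 6299504, plus strand) is ICMT-DT in GENCODE 44, a divergent transcript that starts 268 bp from ICMT, which encodes a methyltransferase of prenylated proteins. It had 56 and 94 reads in ESCs and 20 and 26 in NECs, a log2 change of −1.76 (SE 0.30, edgeR adjusted p = 0.00271). ICMT had a log2 change of −0.46 (SE 0.13, edgeR adjusted p = 0.0226), which did not pass the fold threshold. LINC00152 (chromosome 2, 87754887 to 87906324, plus strand), now CYTOR, is a cytoskeleton-associated lncRNA with a near-identical copy elsewhere on the chromosome, so the assignment of its reads is uncertain. It had 339 and 352 reads in ESCs and 69 and 158 in NECs, a log2 change of −1.73 (SE 0.32, edgeR adjusted p = 0.00387). The NEC replicates of LINC00152 differed in the same direction as POU5F1 did, and the part of that difference in the result was not tested. Without NEC replicate 1, its log2 change was −1.32 (edgeR adjusted p = 0.00247) and it was no longer called.

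LINC00404 and LINC00403 rose most, from near absence in ESCs. They form a head-to-head pair on chromosome 13, with 236 bases between their starts. LINC00404 (112760409 to 112761196, minus strand) had 0 reads in either ESC library and 194 and 209 in the NEC libraries. Against a floor of 3 counts per library it was at least 62.6-fold higher in NECs, at 8.77 ± 0.43 CPM (edgeR adjusted p = 9.7e-05). LINC00403 (112761433 to 112762329, plus strand), SOX1-OT in GENCODE 44, had 1 and 0 reads in ESCs and 229 and 214 in NECs. Its pooled ratio was 419 with an exact 95% interval of 74.9 to 16606 (edgeR adjusted p = 7.5e-05). The pair had nearly equal counts in each NEC library.

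The starts of the pair lie 39.3 and 39.5 kb from that of SOX1, a SOXB1 transcription factor gene of the early neural plate. SOX1 had 53 and 59 reads in ESCs and 2673 and 2959 in NECs, a log2 change of 5.57 (SE 0.13, edgeR adjusted p = 5.9e-06). The sequence between the pair is shown because a single stretch of 278 bases holds both starts, with 20 bases inside each gene. It holds 11 CpG dinucleotides and no match to any of the motifs searched, so no letter is in capitals (GRCh37, chr13:112761176-112761453, plus strand).
LINC00404 to LINC00403: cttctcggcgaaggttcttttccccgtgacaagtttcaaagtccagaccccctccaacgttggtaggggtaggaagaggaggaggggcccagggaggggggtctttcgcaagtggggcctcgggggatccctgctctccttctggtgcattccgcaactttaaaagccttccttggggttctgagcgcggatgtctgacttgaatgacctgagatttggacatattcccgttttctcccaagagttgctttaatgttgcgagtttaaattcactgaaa

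LINC00472, LINC00461 and LINC00478 are host genes of microRNAs, and all were called higher in NECs. RefSeq hairpins were placed inside members by sequence match to GRCh37, on the same strand as the host in every case. LINC00461 (chromosome 5, 87803363 to 87986858, minus strand) holds MIR9-2 (chr5:87962671-87962757), a source of miR-9, which is abundant in neural progenitors. LINC00472 (chromosome 6, 72054047 to 72130472, minus strand) holds MIR30C2 (chr6:72086663-72086734) and MIR30A (chr6:72113254-72113324). LINC00478 (chromosome 21, 17442842 to 17982094, plus strand), now MIR99AHG, holds MIR99A (chr21:17911409-17911489) and MIRLET7C (chr21:17912148-17912231). The mature 5p sequences are shown because they say what a processed transcript of each host could yield, with the seed (bases 2 to 8) in capitals, from RefSeq (GRCh38.p14). The miR-30 pair share the seed GUAAACA.
hsa-miR-9-5p: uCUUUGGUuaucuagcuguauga
hsa-miR-30a-5p: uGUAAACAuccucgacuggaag
hsa-miR-30c-5p: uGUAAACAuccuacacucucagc
hsa-miR-99a-5p: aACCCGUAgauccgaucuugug
hsa-let-7c-5p: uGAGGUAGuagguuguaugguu

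The counts of these hosts are reads of polyadenylated RNA over the host gene, and the mature microRNAs were not measured. LINC00472 had 6 and 7 reads in ESCs and 73 and 86 in NECs, rising from 0.30 ± 0.02 to 3.45 ± 0.05 CPM with a log2 change of 3.51 (SE 0.33, edgeR adjusted p = 0.000297). LINC00461 had 0 and 3 reads in ESCs and 39 and 21 in NECs, a pooled ratio of 18.9 with an exact 95% interval of 6.18 to 94.4 (edgeR adjusted p = 0.00527). LINC00478 had 1 and 1 reads in ESCs and 48 and 22 in NECs, a pooled ratio of 33.1 with an interval of 8.84 to 279 (edgeR adjusted p = 0.00235). Of the NEC replicates, the first was the higher for LINC00461 and LINC00478, and they lay close together for LINC00472. The first was also the higher for several neural crest markers, and a link between these differences was not tested. The span of LINC00461 overlaps that of CTC-467M3.1, so its reads in the shared stretch are not separable from that gene. LINC00478 lay under the level set for naming genes and was chosen after its values were seen. LINC00338 (SNHG20), which holds MIR6516 and overlaps SEC14L1, was not called, with a log2 change of −0.22 (SE 0.23, edgeR adjusted p = 0.422).

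The window at the start of LINC00472 stood at the other end from LINC00439 in base composition, with 28 CpG dinucleotides. It is shown because it carries the most motif matches of the windows printed here. GGGCGG and CCAAT (or ATTGG) matches are in capitals, and some of them overlap each other (GRCh37, chr6:72130423-72130722, minus strand).
LINC00472: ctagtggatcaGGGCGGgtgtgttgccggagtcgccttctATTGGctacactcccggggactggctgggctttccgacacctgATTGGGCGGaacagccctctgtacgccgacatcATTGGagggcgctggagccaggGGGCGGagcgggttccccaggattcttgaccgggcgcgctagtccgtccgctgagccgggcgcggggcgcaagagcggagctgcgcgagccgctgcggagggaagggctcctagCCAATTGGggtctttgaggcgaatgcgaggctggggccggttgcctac

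LINC00391 was the remaining gene called higher, and its call was weak. It lies on chromosome 13 (95351948 to 95355116, minus strand), 9.27 kb from the start of SOX21, a SOXB2 factor of neural progenitors. It had 5 and 4 reads in ESCs and 12 and 18 in NECs, a log2 change of 1.62 (SE 0.47, edgeR adjusted p = 0.0238). The call was lost without ESC replicate 1, ESC replicate 2 or NEC replicate 2 (edgeR adjusted p = 0.0935, 0.237 and 0.115) and in DESeq2 (adjusted p = 0.289). This gene was also chosen after its values were seen. SOX21 rose from 7.54 ± 3.05 to 98.9 ± 1.10 CPM, a log2 change of 3.73 (SE 0.24, edgeR adjusted p = 8.3e-05).

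**Figure D2:**
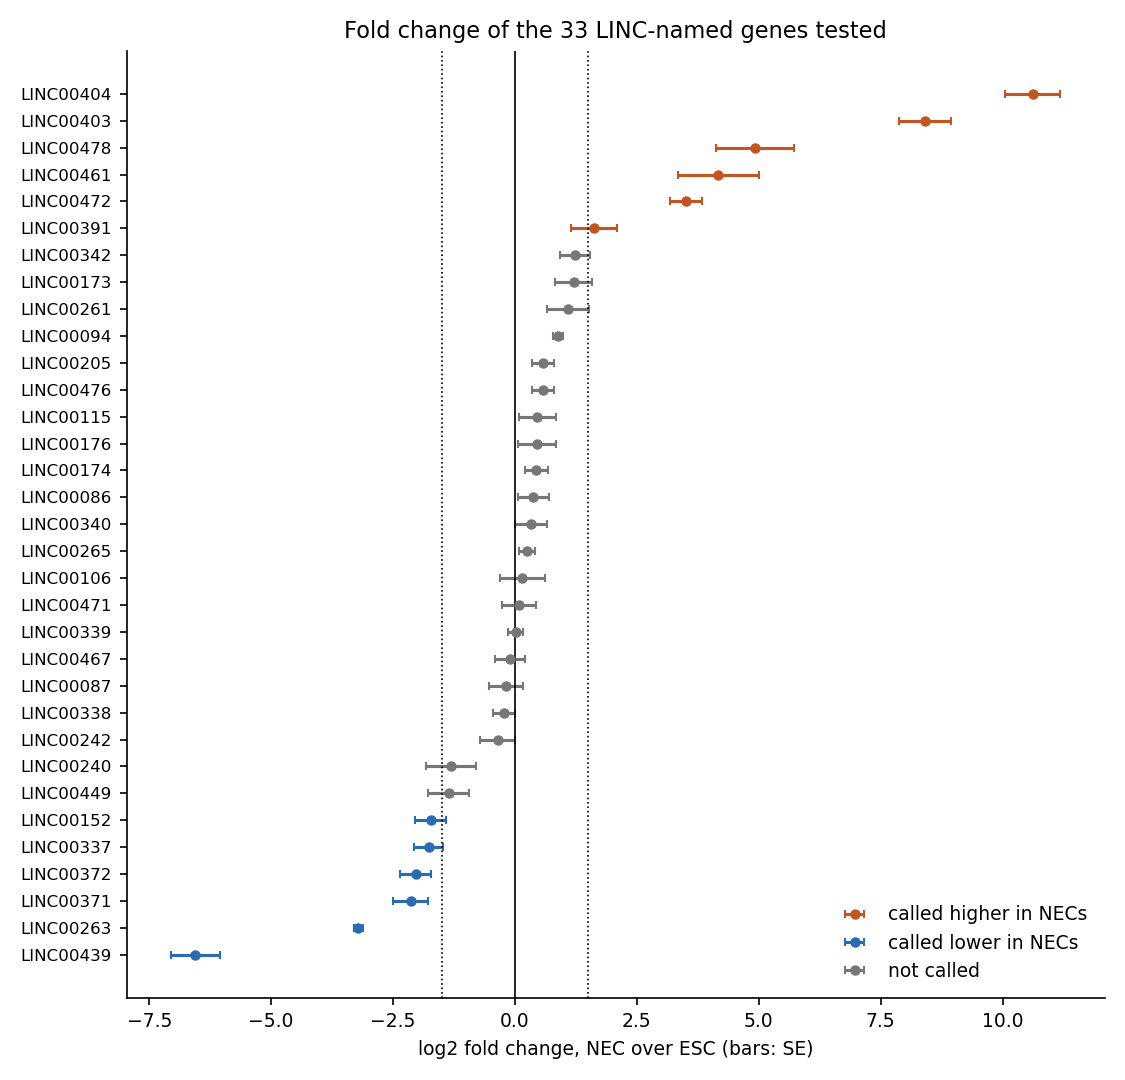
Log2 fold change of NECs over ESCs for the 33 tested LINC-named genes, ordered by size, with SE bars and dotted lines at ±1.5. The 6 genes called higher run from 1.62 to 10.62 and the 6 called lower from −6.56 to −1.73, and the largest values depend on the prior count because their ESC or NEC libraries hold 0 to 3 reads.

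Of the 21 tested members that were not called, 4 had an adjusted p under 0.05 and stayed under the fold threshold. LINC00094 (BRD3OS) had 377 and 468 reads in ESCs and 768 and 878 in NECs, a log2 change of 0.88 (SE 0.10, edgeR adjusted p = 0.00066), and it took more reads in NECs than any other member. LINC00342 had a log2 change of 1.23 (SE 0.30, edgeR adjusted p = 0.0117), LINC00173 of 1.21 (SE 0.38, edgeR adjusted p = 0.0302) and LINC00449 of −1.36 (SE 0.41, edgeR adjusted p = 0.0272). LINC00173 passed the fold threshold without NEC replicate 2, at 1.54 (edgeR adjusted p = 0.0112). LINC00261, which starts beside the endoderm factor gene FOXA2, had 26 and 85 reads in ESCs and 129 and 109 in NECs. The log2 change was 1.09 (SE 0.43, edgeR adjusted p = 0.0635), and 1.91 (edgeR adjusted p = 0.00707) without ESC replicate 2, which made it a call. The span of LINC00261 overlaps that of RP11-216C10.1, and reads from the stretch they share are not separable.

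Some members with reads in both cell types showed small differences, unlike LINC00263, LINC00152 and LINC00094, which are described above. LINC00339 had 243 and 305 reads in ESCs and 295 and 288 in NECs, a log2 change of 0.01 (SE 0.15, edgeR adjusted p = 0.941). LINC00265 had 230 and 249 reads in ESCs and 284 and 321 in NECs, a log2 change of 0.24 (SE 0.16, edgeR adjusted p = 0.226). LINC00174 had 107 and 147 reads in ESCs and 137 and 230 in NECs, a log2 change of 0.44 (SE 0.24, edgeR adjusted p = 0.147), and it overlaps TPST1. LINC00467 had 37 and 77 reads in ESCs and 50 and 60 in NECs, with a log2 change of −0.10 (SE 0.31, edgeR adjusted p = 0.797). The near-identical X-linked pair LINC00086 and LINC00087 had log2 changes of 0.38 (SE 0.32) and −0.19 (SE 0.35), and how reads were split between them is uncertain. LINC00116 (MTLN, a mitochondrial micropeptide gene) and LINC00473 were listed at 0 in all libraries.

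Among the 168 members not tested, 20 had reads in both libraries of a cell type and none in the other, 17 of them in ESCs. Of the members not tested that had a read, these were 19.5% for ESCs and 3.45% for NECs, against 15% and 5.62% of all 6796 such genes, so a lean to ESCs was present in the table as a whole. LINC00483 had 7 and 8 reads in ESCs and 0 in NECs, LINC00309 had 4 and 7, LINC00352 had 5 and 5 and LINC00276 had 8 and 2. These 4 genes, chosen after their values were seen, were called lower when the filter on low counts was removed, together with LINC00479 (3 and 11 reads in ESCs, 1 and 1 in NECs). DESeq2 called LINC00483 alone of these 5. At a few reads per library, a difference for most of the other genes was not detectable at this depth.

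The nearest protein-coding gene was tested for all 12 called members, and it was called the same way for 4 of them, which have 3 distinct neighbours. All 4 were among the genes called higher, namely LINC00404 and LINC00403 beside SOX1, LINC00391 beside SOX21 and LINC00461 beside MEF2C (213 kb between starts). MEF2C, a transcription factor gene of muscle and neurons, had 8 and 10 reads in ESCs and 91 and 42 in NECs, a log2 change of 2.82 (SE 0.55, edgeR adjusted p = 0.00483). Of the NEC replicates, the first had the higher level of both MEF2C and LINC00461. None of the neighbours of the 6 genes called lower was called. Among the other genes typed as lncRNA whose nearest coding gene was tested, that gene was called higher for 39.3% of the 252 called higher, and called lower for 32.8% of the 287 called lower. SCD, which encodes stearoyl-CoA desaturase and starts 26.5 kb from LINC00263, had the opposite sign to it, with a log2 change of 0.88 (SE 0.18, edgeR adjusted p = 0.00531). Opposite signs were also seen for PLGLB2 beside LINC00152 (1.45, SE 0.30, edgeR adjusted p = 0.00626) and USP25 beside LINC00478 (−0.88, SE 0.09, edgeR adjusted p = 0.00044). FAM124A, beside LINC00371 and LINC00372, had the same sign (−1.15, SE 0.12, edgeR adjusted p = 0.000403). The nearest coding gene of a tested member was called in the opposite direction for none of the 12.

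**Figure D3:**
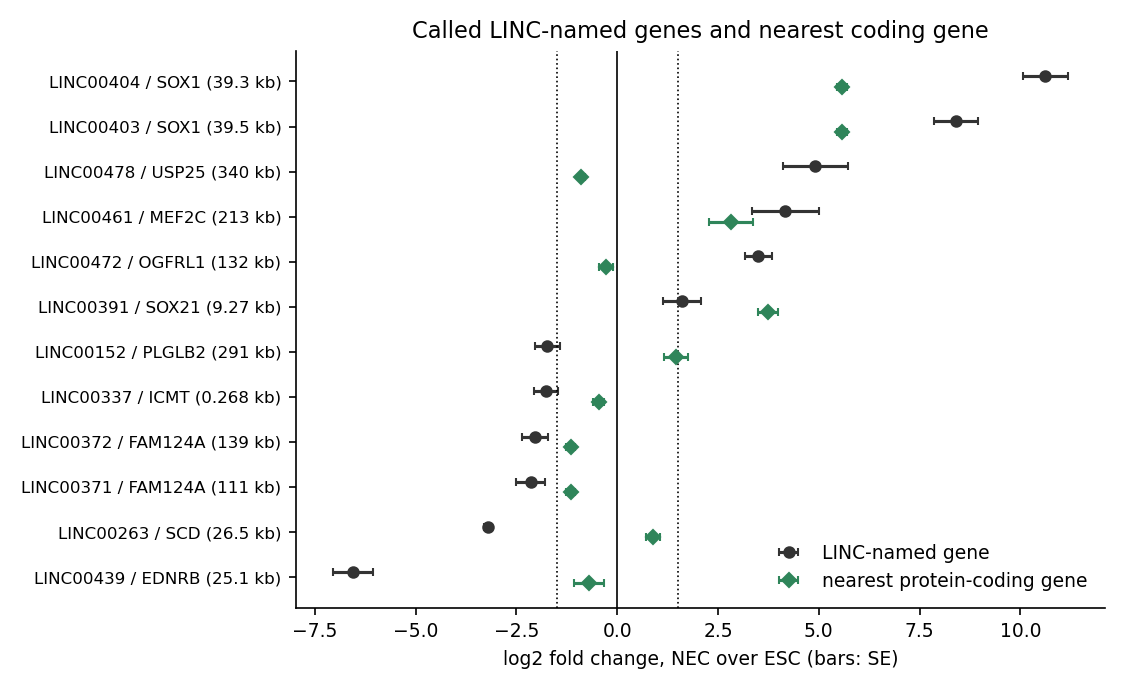
Log2 fold change of each called LINC-named gene (black) and of its nearest protein-coding gene (green diamonds), with SE bars and the distance between starts in kb. The neighbours SOX1, SOX21 and MEF2C lie beyond 1.5 with their LINC-named gene, while the neighbours of the genes that fell lie between −1.15 and 1.45.

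A list of 30 lncRNA genes known by other names gave a comparison of the same class of transcript. Of these, 23 were in the count table and 19 were tested, with 8 called higher, 1 lower and 10 not called, and a median log2 fold change of 0.45. Those called higher included MIAT (2.05, SE 0.37), MEG3 (3.29, SE 0.39), HOTAIRM1 (4.54, SE 0.28) and SOX21-AS1 (3.70, SE 0.37). SOX21-AS1 is an antisense neighbour of SOX21, and LINC00391 also lies close to that gene. FTX was called lower (−1.71, SE 0.24). The list and the LINC-named set are small, and the difference between them was not tested.

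PCHi-C captures ligation products of HindIII fragments (baits) that hold promoters. CHiCAGO gives each pair of a bait and another fragment a score, a weighted p-value on a negative log scale, and pairs at a score of at least 12 were deposited as calls. The fragment that a bait was called with is its promoter-interacting region (PIR). The start of 36 members (17.9%) lay in a bait that had a call, against 71.6% of all genes in the count table. These starts lay in 35 of 21833 baits, since LINC00479 and LINC00112 share a bait. Of the 35 baits, 21 held no other gene start and 14 did, 13 of them a protein-coding start. Baits with no call in any list cannot be seen in the files. Of the 12 called genes, LINC00337 alone had its start in a bait, which it shares with ICMT.

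Fewer of the LINC baits than of protein-coding baits had a merged PIR in NECs, but the single replicates gave another pattern. Baits with a PIR had similar numbers of them. In the merged calls, made by the authors from both replicates of a cell type together, 25 of the 35 baits (71.4%, 95% Wilson interval 54.9 to 83.7) had a PIR in ESCs and 22 (62.9%, 46.3 to 76.8) in NECs. Among baits of protein-coding genes, 82.4% and 84.2% did, and among all baits 79.9% and 81.2%. The NEC shares of both lie above the interval of the LINC baits, and the ESC shares lie within it. By replicate, 77.1% (61.0 to 87.9) and 82.9% (67.3 to 91.9) of LINC baits had a PIR in ESCs. In NECs 74.3% (57.9 to 85.8) and 85.7% (70.6 to 93.7) did. Protein-coding baits were at 88.4% and 89.2% in ESCs and at 89.1% and 88.2% in NECs. These lie above the LINC interval in replicate 1 of each cell type and within it in replicate 2. At a score of at least 15, 31.4% of LINC baits had a PIR in either cell type (18.6 to 48.0), against 44.5% of protein-coding baits in ESCs and 48.2% in NECs. The median number of PIRs over baits with at least 1 was 3 in each cell type, where protein-coding baits had 4 and all baits 3. Counted over all members, 12.9% started in a bait with a merged PIR in ESCs (9.0 to 18.3) and 11.4% in NECs (7.75 to 16.6).

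Calls at LINC baits were partly shared between ESCs and NECs. Of 137 merged ESC calls and 111 merged NEC calls, 49 joined the same fragments, which is 35.8% of the ESC calls (28.2 to 44.1) and 44.1% of the NEC calls (35.3 to 53.4). Over all baits the shares were 44.2% and 44.3%. At a score of at least 15 the order in ESCs turned, with 56.7% of 30 LINC calls shared (39.2 to 72.6) against 46.5% over all baits. The LINC00261 bait, which also holds FOXA2, gave 27 of the 137 merged calls in ESCs and 23 of the 111 in NECs. It gave 13 of the 49 found in both. For the LINC00415 bait, which also holds SHISA2, these numbers were 24, 22 and 11. The intervals treat calls as independent, which calls from a single bait need not be. Shares and median distances at LINC baits therefore depend in large part on these baits. The replicates of ESCs shared 23.9% and 24.6% of their calls with each other at LINC baits, and the NEC replicates 20%. Over all baits, the ESC replicates shared 24.1% and 26.6% and the NEC replicates 21.0% and 25.9%. Replicates therefore differed from each other at the level of single calls, at LINC baits and over all baits. Merged calls at LINC baits spanned a median of 236 kb (ESCs) and 231 kb (NECs), against 197 and 217 kb over all baits. In the single replicates the median was 477 to 485 kb, against 377 to 436 kb over all baits. Of 431 distinct calls at LINC baits, 8 were made in all 4 replicates, and the same share over all baits was not computed.

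**Figure D4:**
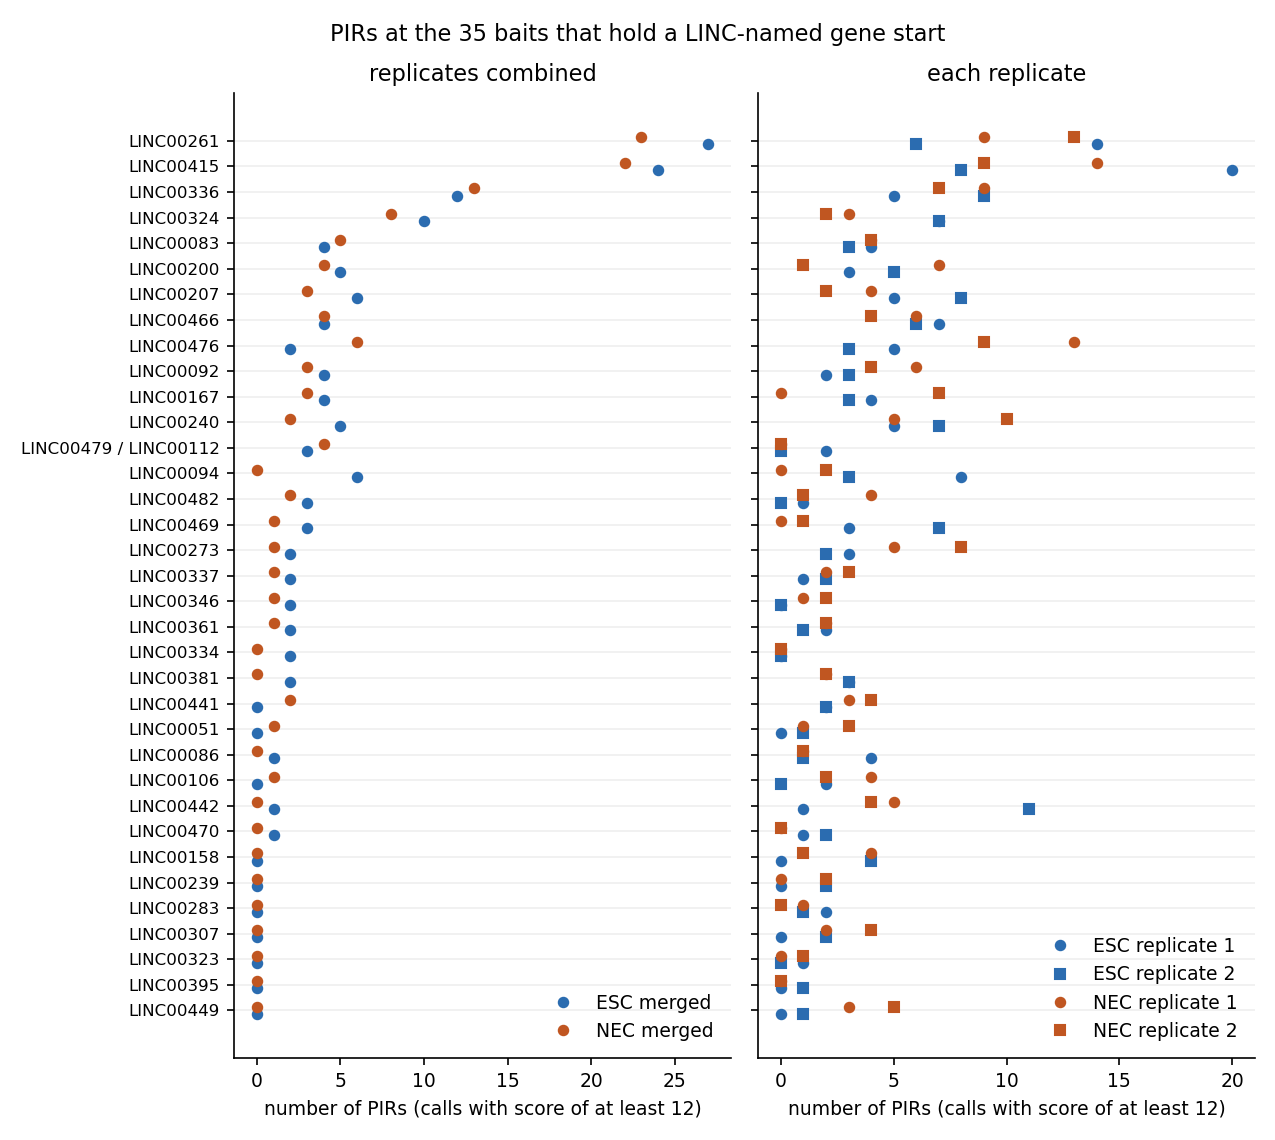
Number of PIRs at each of the 35 baits that hold a LINC-named gene start, in the merged calls (left) and in each replicate (right), for ESCs (blue) and NECs (orange). LINC00261 and LINC00415 have 22 to 27 merged PIRs in each cell type, while most baits have 0 to 5.

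Of all members, LINC00261 and LINC00415 had the most merged PIRs, followed by LINC00336 and LINC00324. The bait of LINC00261 also holds the start of FOXA2, and had 27 merged PIRs in ESCs (replicates 14 and 6) and 23 in NECs (9 and 13). Of its 37 distinct merged PIRs, 23 overlapped no gene. The PIR called in all 4 replicates lay over PAX1, 872 kb away, with merged scores of 20.71 in ESCs and 19.77 in NECs. FOXA2 had 97 and 331 reads in ESCs and 57 and 40 in NECs, a log2 change of −2.13 (SE 0.50, edgeR adjusted p = 0.00987), while LINC00261 had one of 1.09 that was not called. Contacts of genes that share a bait cannot be told apart.

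LINC00415 shares its bait with SHISA2, which encodes an inhibitor of WNT and FGF receptor maturation. It had 24 merged PIRs in ESCs (replicates 20 and 8) and 22 in NECs (14 and 9). Of its 35 distinct merged PIRs, 34 lay over ATP8A2, a phospholipid flippase gene, at up to 601 kb from the bait. ATP8A2 had 283 and 386 reads in ESCs and 86 and 169 in NECs, a log2 change of −1.49 (SE 0.26, edgeR adjusted p = 0.00298), just under the fold threshold. A run of neighbouring fragments inside ATP8A2, 474 to 481 kb away, was called in all 4 replicates for 3 of its fragments. LINC00415 itself had 1 read in all libraries together.

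LINC00336, alone in its bait, had 12 merged PIRs in ESCs (replicates 5 and 9) and 13 in NECs (9 and 7). Of its 19 distinct merged PIRs, 7 lay over ITPR3, 3 over IP6K3 and 5 over GRM4. The highest merged score was 15.61 in ESCs and 21.64 in NECs. ITPR3, an inositol trisphosphate receptor gene, had a log2 change of −1.92 (SE 0.15, edgeR adjusted p = 0.000146), and GRM4, a metabotropic glutamate receptor gene, of −1.72 (SE 0.55, edgeR adjusted p = 0.0324). LINC00336 had 2 reads in ESC replicate 1 and 0 elsewhere. LINC00083 had 4 merged PIRs in ESCs and 5 in NECs, as many in sum as LINC00200 and LINC00207, and 3 or 4 in each replicate.

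Replicate PIR numbers did not overlap between the cell types at 12 of the 35 baits, 6 with more in NECs and 6 with more in ESCs. Over all baits, 13.1% had more in NECs and 12.8% more in ESCs by the same rule, and 2 replicates against 2 cannot reach a p under 0.05 in a permutation test. The merged numbers went the same way at all 6 baits with more in the ESC replicates. Of the 6 with more in the NEC replicates, the merged number was also higher in NECs at 2, equal at LINC00449 and lower in NECs at LINC00092, LINC00346 and LINC00273. With more in NECs, LINC00476 had 5 and 3 PIRs by replicate in ESCs, against 13 and 9 in NECs (2 and 6 merged). LINC00441 (RB1-DT), a divergent transcript in the bait of the tumour suppressor gene RB1, had 2 and 2 in ESCs and 3 and 4 in NECs (0 and 2 merged). Its merged NEC contacts reached ITM2B at a score of 15.54 and ESD at 20.27, both called in each NEC replicate and in neither ESC replicate. ITM2B, an integral membrane protein gene, went from 259 ± 33.4 to 106 ± 6.17 CPM, a log2 change of −1.29 (SE 0.12, edgeR adjusted p = 0.000252) that stayed under the fold threshold. ESD, the esterase D gene, had a log2 change of 0.57 (SE 0.10, edgeR adjusted p = 0.00348).

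With more PIRs in ESCs, LINC00094 had 8 and 3 by replicate in ESCs, against 0 and 2 in NECs (6 and 0 merged), while its transcript was higher in NECs. LINC00324 had 7 and 7 against 3 and 2 (10 and 8 merged). LINC00207, with no read in any library, had 5 and 8 against 4 and 2 (6 and 3 merged). LINC00469 had 3 and 7 against 0 and 1 (3 and 1 merged), and LINC00381 had 3 and 3 against 2 and 2 (2 and 0 merged). In most of these the replicates lay a few PIRs apart, and the merged numbers of LINC00324 differed less than those of its replicates.

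The strongest contact gained in score joined the LINC00476 bait to the start of PTCH1. LINC00476 (chromosome 9, 98520892 to 98638259, minus strand), ERCC6L2-AS1 in GENCODE 44, starts 359 bp from C9orf102 and shares its bait (98635859 to 98639863). PTCH1 encodes the receptor of Hedgehog ligands and lies 358 kb away. The contact scored 12.45 and 13 by replicate in ESCs, against 25.7 and 23.3 in NECs, with merged scores of 13.18 and 33.22. PTCH1 rose from 32.7 ± 3.70 to 109 ± 6.96 CPM, a log2 change of 1.74 (SE 0.11, edgeR adjusted p = 8.3e-05). The contact with FANCC, a DNA repair gene, also scored higher in NECs, at 14.77 and 13.29 by replicate in ESCs, against 20.52 and 18.25 in NECs. LINC00476 itself had 58 and 92 reads in ESCs and 102 and 133 in NECs. Its log2 change was 0.58 (SE 0.23, edgeR adjusted p = 0.0694), and its span overlaps that of C9orf102.

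LINC00092, whose bait lies 147 kb from that of LINC00476, contacted the same region. The baits had 6 PIR fragments in common over all lists, including fragments over PTCH1. They were also called with each other in the merged NEC list at a score of 14.05. The contact of LINC00092 with a fragment 196 kb away that holds no gene start was called in all 4 replicates, with merged scores of 16.94 in ESCs and 21.18 in NECs. LINC00092 had 2 and 3 PIRs by replicate in ESCs and 6 and 4 in NECs, but 4 merged PIRs in ESCs and 3 in NECs. It was chosen after its values were seen.

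**Figure D5:**
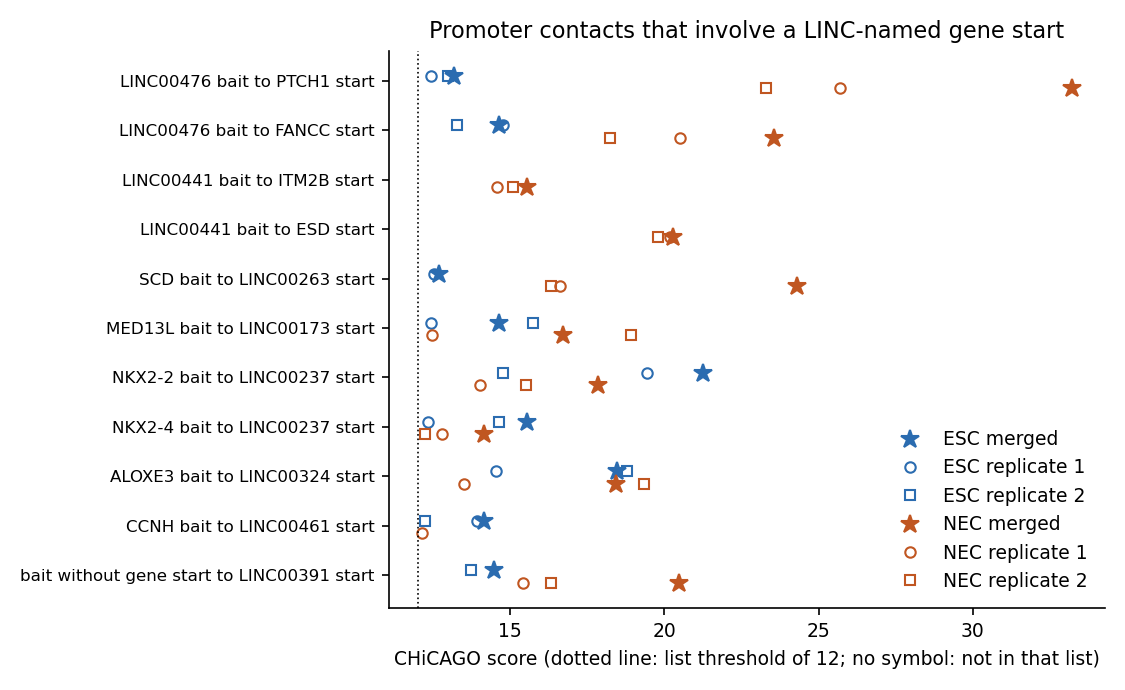
CHiCAGO scores of contacts that involve a LINC-named gene start, in ESCs (blue) and NECs (orange), with stars for merged calls and open symbols for replicates. A symbol is missing where a list does not hold the contact, and the LINC00476 contact with PTCH1 reaches 33.22 in NECs against 13.18 in ESCs.

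Starts outside baits could still be seen as PIRs of other promoters. Of the 165 members not in a bait, 34 started in a merged PIR, 24 in ESCs and 27 in NECs. They took part in 62 merged contacts, of which 16 were in both merged lists and 3 were called in all 4 replicates. The same counts for other gene starts outside baits were not computed. The 3 contacts called in all 4 replicates joined LINC00173 to MED13L, a Mediator kinase module gene, and LINC00237 to NKX2-2 and NKX2-4. NKX2-2 and NKX2-4 are homeobox genes of the ventral neural tube and brain. The LINC00173 contact, over 257 kb, had merged scores of 14.64 in ESCs and 16.71 in NECs. The LINC00237 contact with NKX2-2, over 408 kb, scored 21.26 in ESCs and 17.86 in NECs, and the contact with NKX2-4 scored 15.54 and 14.16. LINC00237 had 2 and 2 reads in ESCs and 0 in NECs, and NKX2-2 had 0 reads in ESCs and 1 and 1 in NECs, so these contacts were called where both genes were near 0. LINC00237, like the contacts of this paragraph, was chosen after its values were seen.

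The fragment that holds the start of LINC00263 was a PIR of the SCD bait. The fragment (chromosome 10, 102133241 to 102140061) begins inside the window printed above, and its midpoint lies 32.4 kb from that of the bait. The contact scored 12.54 in ESC replicate 1, was not called in ESC replicate 2, and scored 16.63 and 16.33 in the NEC replicates, with merged scores of 12.69 and 24.31. It was therefore higher in the cell type in which LINC00263 was lower and SCD was higher. SCD had 24260 and 23219 reads in ESCs and 41985 and 52590 in NECs. The fragment around LINC00391 was also a PIR of higher score in NECs, from a bait without a gene start 270 kb away (14.47 and 20.47 merged). LINC00461 was in contact with CCNH, a cyclin H gene 1276 kb away, in both ESC replicates (13.93 and 12.23) and in NEC replicate 1 (12.13).

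The shared fragment of LINC00404 and LINC00403 had no merged contact. It was a PIR in ESC replicate 2 alone, of a bait 521 kb away at a score of 12.03 and of the SPACA7 bait at 13.18. No contact at a score of 12 was listed for it in NECs, where the pair was transcribed. A missing call says that the score stayed under 12 in a list or that the fragment was not baited, not that no contact exists.

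Sequence around the starts differed between members that could be tested and those that could not. Windows from 250 bases before to 50 after the start were read for 199 members. The median number of CpG dinucleotides was 14 in the tested members, 3 in the members not tested, 18 for protein-coding genes and 10 over all genes. A GC box, GGGCGG on either strand, was found in 42.4% of tested members, 16.3% of members not tested, and 39.6% of all windows. A TATA box, TATAAA on either strand, was found in 17.6% of members (9.09% of tested, 19.3% of those not tested) and 12.8% of all windows. The SOX core letters ACAAAG were found in 26.6% of members (18.2% of tested, 28.3% of those not tested) and 17.2% of all windows. CCAAT was found in 36.7% of members and 35.4% of all windows, CACGTG in 6.03% and 6.85%, and the octamer ATGCAAAT in 1.51% and 1.75%. The median GC content was 56.3% in tested members, 46.7% in members not tested and 55.3% over all genes. A match is a description of letters and does not show that a factor binds there.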

How the data were processed

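Polyadenylated RNA of ESCs and NECs was sequenced by the authors as single-end libraries. Reads were trimmed and aligned to GRCh37 (Bowtie 1.0.0 and TopHat2 2.0.8b, per the submitters' processing notes). The authors deposited raw read counts per Ensembl 70 gene, counted without strand and not normalized. For PCHi-C the authors deposited CHiCAGO 0.1.4 scores of HindIII fragment pairs at a score of at least 12, per replicate and for merged replicates. Read numbers behind a score are unknown. Hi-C was not used here.

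Counts were filtered (filterByExpr, minimum count 10), normalized by TMM and tested over the whole table with edgeR 4.0.16 in R 4.3.3 (quasi-likelihood test, two-sided, prior count 0.125, Benjamini-Hochberg adjustment over all 17564 genes tested). Each SE of a log2 fold change is its absolute value divided by the square root of the F statistic of the edgeR test. DESeq2 1.42.0 was an alternative. P-values set the difference between cell types against the spread of 2 biological replicates of a single line per cell type. The dispersion behind them is moderated across genes. Intervals at 95% are Wilson intervals for shares and exact binomial intervals for ratios of reads, and cover counting error only. Interactions were shared when both fragments were the same, and distances are between fragment midpoints. Tables and figures were made in Python 3.11.15 with pandas 2.3.3, scipy 1.17.1 and matplotlib 3.10.9. The tests were first run on simulated counts. Gene types and later names came from GENCODE 44 on GRCh37.

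The named genes are up to 10 called members at each end of the log2 fold change, at an average log2 CPM of at least 0. They also include the 6 members with the highest mean CPM and the 5 with the most merged PIRs. Up to 5 in each direction had the largest difference in merged PIRs among those with non-overlapping replicates. Of 14 LINC-named genes known from other work, the 6 that were in the table were also named. The members and lists were chosen with earlier results of these data known. Alternatives were other scalings, filters and tests, no fold threshold, a replicate block, leaving out each library, a score of at least 15, PIRs within 10 kb counted as shared, and baits with no other gene start.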

Additional observations from a re-analysis of the deposited data

How the results depend on the processing

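The numbers of called members were 6 higher and 6 lower, the same genes, with DESeq2's size factors, library size alone and the replicate number as a block. The labels give ESC and NEC libraries the same replicate numbers, but deviations of same-numbered libraries correlated at r = 0.074, so the numbers were not taken to pair the samples, and the block changed no call. With no filter beyond 1 count, 11 members were called lower, and with a filter of 1 CPM in 2 libraries 3 were called higher, because LINC00461, LINC00478 and LINC00391 were then not tested. DESeq2 called 5 higher and 7 lower. Leaving out each library gave 5 to 6 higher and 5 to 6 lower. Without a fold threshold 9 were higher and 7 lower. The median log2 fold change (0.32) was 0.39 with library size alone, 0.24 with the 1 CPM filter, 0.20 without overlapping genes, and 0.011 to 0.29 without single libraries. It was −0.92 with no filter and −1.0 in DESeq2, which took in 120 members with a read. The log2 fold change of LINC00339 changed sign with DESeq2's size factors (−0.0075), in DESeq2 (−0.0047), without ESC replicate 2 and without NEC replicate 1, with a range of −0.10 to 0.13 over the libraries left out. That of LINC00467 changed sign without ESC replicate 2, with a range of −0.41 to 0.28. In these fits the cell type left with 1 library is assumed to vary like the other. Fitted values against 0 to 3 reads moved most. Without ESC replicate 1 that of LINC00403 was 10.83 and that of LINC00461 3.37, and without ESC replicate 2 they were 7.36 and 7.85, all still called.

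At a score of at least 15 the median PIR number was 2 in both cell types, 5.47% of members started in a bait with a PIR in ESCs and 5.47% in NECs, and 56.7% of ESC calls at LINC baits were shared, against 46.5% over all baits. With PIRs within 10 kb counted as shared, 62.8% of ESC and 71.2% of NEC calls were, against 65.2% and 64.9% over all baits. For LINC baits with no other gene start, 27.5% of ESC and 42.2% of NEC calls were shared and the NEC median was 2. No such subset of all baits was computed. A replicate alone in place of a merged list gave 20.5 to 24.6% of ESC and 21.6 to 25.8% of NEC calls shared, medians of 3 to 3 in ESCs and 3 to 4 in NECs, and 13.9 to 14.4% and 12.9 to 14.9% of members in a bait with a PIR. Read depth limited the expression results to 33 members, and the merged lists and single replicates differ in depth by an unknown amount.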
